A study of Mus musculus with 17 samples.

Results

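Schwann cells wrap the axons of peripheral nerves, and 8 genes that mark these cells or build their myelin were followed through the extensor digitorum longus (EDL), a lower-leg muscle of mostly fast fibres. The genes were Ngfr, Ncam1, Sox10, S100b, Mbp, Pmp22, Prx and Mag. They were taken by gene symbol from a table of 36172 loci, each symbol matched 1 row, and all 8 passed the low-count filter that left 13965 genes for testing. RNA was sequenced from whole EDL muscle of 17 mice aged 22 or 23 months. An empty vector had been given to 10 mice (EV, 5 females and 5 males), and a Hand2 vector to 7 mice (4 females and 3 males). Every animal had received a vector, and the labels name no uninjected group. Hand2 encodes a transcription factor that sympathetic neurons need, and the title of the series concerns the keeping of such neurons and of muscle mass in ageing. The strain, the promoter in the vectors, and the time, route and place of delivery are not given in the labels, and each library is 1 animal. In females the age was 22 months for EV replicates 1 and 2 and Hand2 replicates 1, 2 and 3, and 23 months for EV replicates 3, 4 and 5 and Hand2 replicate 5. In males it was 22 months for EV replicate 10 and Hand2 replicate 4, and 23 months for EV replicates 6 to 9 and Hand2 replicates 6 and 7.

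In a peripheral nerve, myelinating Schwann cells wind 1 stretch of a large axon in compacted membrane, while non-myelinating Schwann cells hold bundles of thin axons, among them sympathetic fibres, without myelin. Neuregulin on the axon, read by ErbB receptors, drives the transcription factors Sox10, Pou3f1 and Egr2, which switch on the myelin genes. When an axon is lost, Schwann cells lower their myelin genes and raise genes of an immature or repair state, such as Ngfr, Ncam1, Gap43 and Sox2. A muscle sample holds a short length of nerve, the terminal Schwann cells that cap the neuromuscular junctions, and muscle fibres in large excess.

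Spans are given in mm10 as in the deposited table. Ngfr, the low-affinity neurotrophin receptor p75, spans chromosome 11, 95568821 to 95587698, on the minus strand. Ncam1, a cell adhesion molecule, spans chromosome 9, 49502146 to 49799069, on the minus strand. Sox10 spans chromosome 15, 79154913 to 79164490, on the minus strand. S100b, which encodes a calcium-binding protein of glial cells, spans chromosome 10, 76253836 to 76261319, on the plus strand. Mbp encodes myelin basic protein, which holds the inner faces of compact myelin together. Pmp22, a membrane protein of compact myelin whose dosage is altered in inherited neuropathy, spans chromosome 11, 63131510 to 63159546, on the plus strand. Prx, periaxin, a scaffold that ties the outer Schwann cell membrane to its surroundings, spans chromosome 7, 27499324 to 27520041, on the plus strand. Mag, an adhesion protein of the myelin layer facing the axon, spans chromosome 7, 30899183 to 30914832, on the minus strand.

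RefSeq promoter entries of GRCm38.p6, the assembly of mm10, were used for 5 of the 8 genes, with 10 start sites. The 250 bases before a start are shown for Prx, Pmp22 and Mag, which are 3 of the 4 myelin genes whose levels are set against each other below. They are written 5′ to 3′ in the direction of the gene and in lower case, with any searched motif in capitals. The windows are chr7:27499074-27499323 (plus strand) for Prx, chr11:63131207-63131456 (plus strand) for Pmp22 start 2, and chr7:30914923-30915172 (minus strand) for Mag start 2, and all lie upstream of the RefSeq start.
Prx: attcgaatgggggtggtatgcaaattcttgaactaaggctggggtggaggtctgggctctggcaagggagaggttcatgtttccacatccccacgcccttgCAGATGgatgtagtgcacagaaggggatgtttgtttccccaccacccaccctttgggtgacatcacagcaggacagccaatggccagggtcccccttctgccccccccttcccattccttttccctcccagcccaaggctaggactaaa
Pmp22: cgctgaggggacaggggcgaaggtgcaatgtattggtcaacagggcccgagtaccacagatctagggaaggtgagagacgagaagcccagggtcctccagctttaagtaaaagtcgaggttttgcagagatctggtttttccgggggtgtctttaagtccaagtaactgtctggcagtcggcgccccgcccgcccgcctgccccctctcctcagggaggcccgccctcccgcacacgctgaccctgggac
Mag: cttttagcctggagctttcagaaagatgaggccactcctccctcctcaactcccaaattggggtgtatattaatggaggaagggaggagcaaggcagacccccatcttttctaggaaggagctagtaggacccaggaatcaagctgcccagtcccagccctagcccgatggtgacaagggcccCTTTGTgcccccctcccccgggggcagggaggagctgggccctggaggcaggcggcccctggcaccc

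Each window was searched on both strands for the Sox core ACAAAG or ACAATG, the Egr core GTGGGCG and the E-box CATCTG. The Sox core stands once in the Mag window, 67 bases before the start, written there as its reverse complement, and the same copy lies 126 bases before Mag start 1. The E-box stands once in the Prx window, 149 bases before the start, also as its reverse complement. Of 32851 mouse promoter windows of this length, 25.2% hold the Sox core, 7.02% the Egr core and 14.4% the E-box. None of these letters stood in the windows of Ngfr, S100b or any of the 4 Pmp22 starts, and Sox10, Ncam1 and Mbp were not searched.

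Levels are CPM, the counts scaled to library size and between libraries by the trimmed mean of M values, and libraries held 19181208 to 30942818 estimated counts. To compare genes, CPM was divided by the length of each gene's merged GENCODE exons in kb. Pmp22 was highest, at 29.6 ± 4.71 CPM per kb (SD, n = 17), followed by Mbp at 6.17 ± 1.20 and Prx at 5.09 ± 0.705 CPM per kb. The SD ranges of Mbp and Prx overlapped. S100b stood at 3.05 ± 0.695 CPM per kb, Sox10 at 1.81 ± 0.478 and Ncam1 at 1.70 ± 0.302, and the SD ranges of Sox10 and Ncam1 overlapped too. All genes share the same libraries and were not compared animal by animal, so an overlap of SD ranges does not settle the order of a pair. Mag and Ngfr were lowest at 0.939 ± 0.223 and 0.847 ± 1.04 CPM per kb. With the median transcript length in place of merged exons, the SD ranges of neither pair overlapped. Mbp then stood at 25.9 ± 5.05 CPM per kb against 6.09 ± 0.843 for Prx. Ncam1, at 4.24 ± 0.753 against 1.83 ± 0.484 for Sox10, moved from place 6 to place 4. The table has 1 count per gene, so transcript forms, such as those of Mbp outside myelin, were not separated. Pmp22, Ncam1 and S100b are also transcribed outside Schwann cells, in cells that include fibroblasts and muscle cells.

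Markers of central myelin were at or near 0, while periaxin, a protein of peripheral myelin, lay between 22.0 and 35.7 CPM in the 17 libraries. Opalin, a gene of oligodendrocytes, had no counts in any library, and Mog and Mobp lay at or below 0.149 CPM. The axonal genes Nefl and Chat lay at or below 0.105 CPM and Nrg1 at or below 0.0747 CPM. Of the 13 axon and neuron genes listed, 4 passed the low-count filter. These were Stmn2, Uchl1, Prph and Tubb3, with means of 5.43, 4.86, 1.01 and 0.452 CPM. In whole muscle, fewer Schwann cells and less RNA per Schwann cell cannot be told apart.

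**Figure D1:**
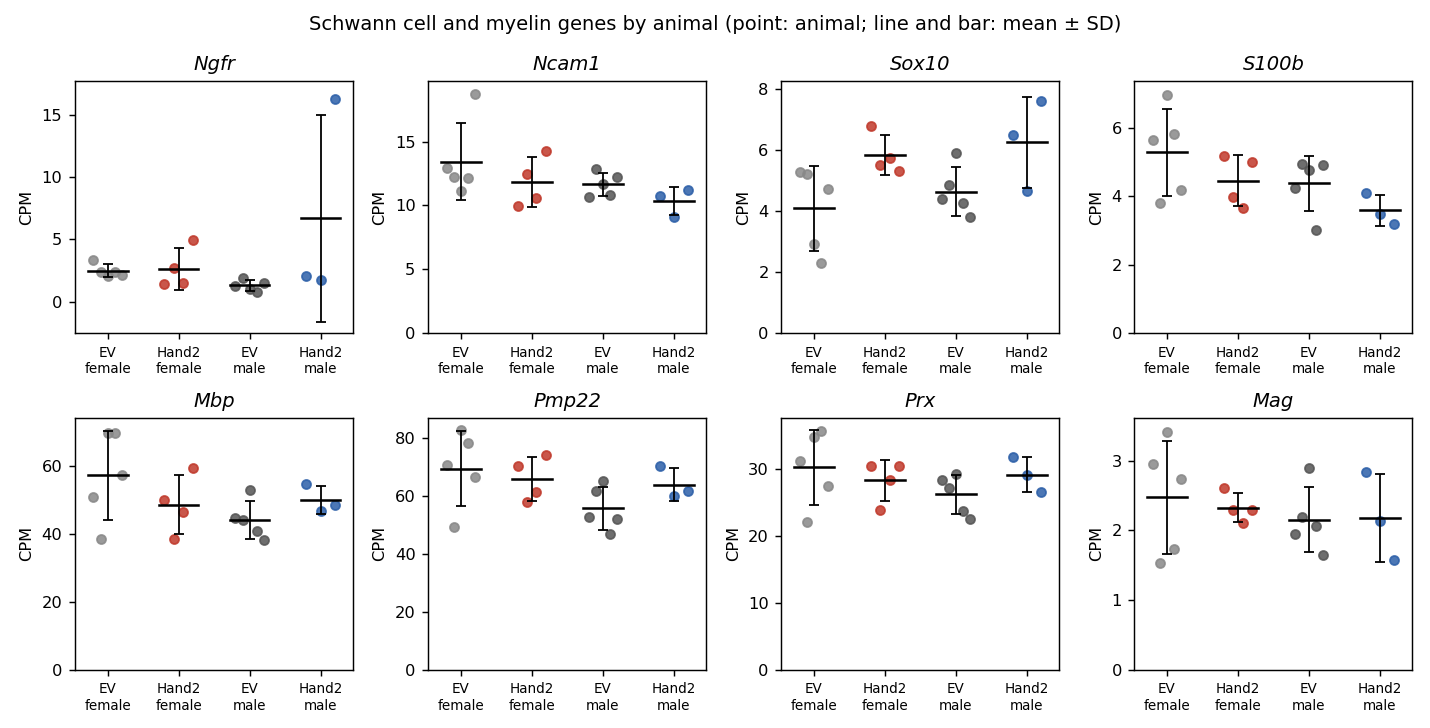
Level of each gene in CPM (linear axes) in the 17 animals, by vector and sex; each point is an animal, and the line and bar are the mean and SD of the group. Hand2 replicate 7 stands at 16.3 CPM for Ngfr, EV replicate 5 at 18.7 CPM for Ncam1, and EV replicates 3 and 4 are lowest for Sox10 and highest for Mbp.

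The first comparison asked whether the Hand2 vector changed these genes, with sex taken into account. None of the 8 was called: 0 of 8 passed an adjusted p of 0.05 in edgeR's quasi-likelihood test, as did 0% of all 13965 genes. Sox10 and Ngfr had positive fold changes and unadjusted p under 0.05 (2 of 8 genes, against 705 of 13965), and the effects of Mbp, Pmp22, Prx and Mag lay between -0.04 and 0.05 on the log2 scale. In DESeq2 1 gene of the table passed and in limma-voom 0, and none of the 8 was called by either. The test was repeated in females, in males and for the difference between the sexes, where 0 of 8 and 0% of all genes passed each time. At an unadjusted p under 0.05 there were 824 genes in females, 397 in males and 474 for the difference. DESeq2 called 7 genes in females, 1 in males and 0 for the difference, and limma-voom called 0 in each.

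**Figure D2:**
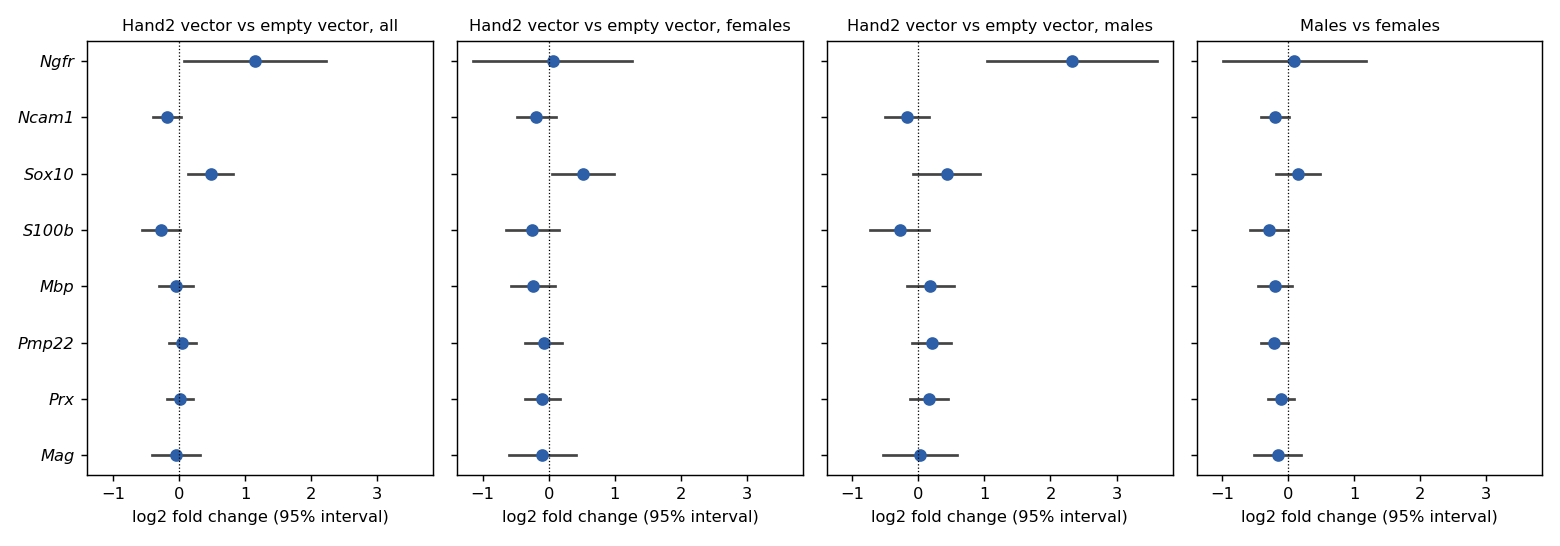
Log2 fold change of each gene (points) with its 95% interval (lines) from edgeR in 4 comparisons, n = 17 animals; the dotted line is no change. In males Ngfr lies at 2.33 with an interval of 1.04 to 3.61, and no point passed an adjusted p of 0.05.

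Ngfr varied most of the 8 genes, and 1 animal stood far above the rest. In EV females it stood at 3.36, 2.42, 2.09, 2.42 and 2.17 CPM in replicates 1 to 5. EV males stood at 1.25, 1.92, 1.06, 0.773 and 1.54 CPM in replicates 6 to 10. Hand2 females gave 1.43, 2.67, 1.49 and 4.96 CPM in replicates 1, 2, 3 and 5. Among Hand2 males, replicates 4 and 6 held 2.05 and 1.76 CPM and replicate 7 held 16.3 CPM, or 310.7 estimated counts. Hand2 replicate 7 lay above every other animal, the next being Hand2 replicate 5. All 5 EV males lay below all 5 EV females, though how many of all genes separate the EV animals by sex was not counted. Within each sex the EV and Hand2 ranges overlapped. The vector effect on Ngfr was 1.15 ± 0.50 on the log2 scale (SE, interval 0.08 to 2.22, adjusted p = 0.921 in edgeR), and 0.24 without Hand2 replicate 7. In the 22-month animals alone, which leave out that animal with the other 23-month ones, it was -0.35. In males it was 2.33 ± 0.60 (adjusted p = 1 in edgeR) with that animal and 0.53 without it. In females it was 0.06 ± 0.57 (interval -1.15 to 1.27). The difference between the sexes, 2.27 ± 0.84 (edgeR adjusted p = 0.9997), was 0.47 without Hand2 replicate 7.

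Sox10, the factor that defines the Schwann cell lineage, had the smallest unadjusted p of the 8 genes in the comparison of vectors over all animals. EV females held 5.26, 5.21, 2.90, 2.29 and 4.72 CPM in replicates 1 to 5. EV males held 4.39, 4.83, 5.87, 4.25 and 3.79 CPM in replicates 6 to 10. Hand2 females held 6.79, 5.49, 5.74 and 5.30 CPM in replicates 1, 2, 3 and 5, and Hand2 males 6.49, 4.64 and 7.59 CPM in replicates 4, 6 and 7. All 4 Hand2 females lay above all 5 EV females, the lowest at 5.30 CPM against 5.26 CPM in the highest EV female. The males overlapped, with 2 of 3 Hand2 males above every EV male. How many of all genes separate the groups in this way was not counted. EV animals averaged 4.35 ± 1.10 CPM (SD, n = 10), and Hand2 animals averaged 6.01 ± 1.01 CPM (SD, n = 7). The fitted effect was 0.48 ± 0.16 (interval 0.14 to 0.81, unadjusted p = 0.00746, adjusted p = 0.921 in edgeR), so it did not pass over all genes. It was 0.52 ± 0.22 in females (edgeR adjusted p = 0.84) and 0.43 ± 0.24 in males (edgeR adjusted p = 1), and the difference between the sexes was -0.09 ± 0.33.

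The low end of Sox10 was set by EV replicates 3 and 4. These libraries also held the most RNA of immediate-early genes, which respond rapidly when a cell is stimulated. The summed level of the 8 immediate-early genes was 2569 CPM in EV replicate 3 and 1378 CPM in EV replicate 4, against 263 to 582 CPM in the other 15 animals. Within females all 8 of those genes had a negative vector effect, with a median of -1.17 against -0.004 over all genes, and 0 of 8 passed. In males 7 of the 8 had a positive effect (median 0.28, 0 passed), and the difference between the sexes was positive for 8 of 8 (median 1.57, 0 passed). Egr1 and Fos were among them, at 195 and 338 CPM in EV replicate 3. Without EV replicates 3 and 4, an alternative added after the values were seen, the Sox10 effect was 0.20 in females and 0.32 over both sexes. The part of the immediate-early genes in the Sox10 difference was not tested.

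S100b and Ncam1 had negative vector effects that did not pass. S100b ranged from 3.01 to 6.96 CPM with the empty vector (median 4.84) and from 3.19 to 5.19 CPM with the Hand2 vector (median 3.98), so all 7 Hand2 animals lay inside the EV range. Its effect was -0.27 ± 0.14 (interval -0.55 to 0.02), and nearly the same in females (-0.25 ± 0.19) as in males (-0.28 ± 0.21). Ncam1 ranged from 10.7 to 18.7 CPM with the empty vector (median 12.2) and from 9.09 to 14.3 CPM with the Hand2 vector (median 10.7), and 3 of 7 Hand2 animals lay below every EV animal. Its effect was -0.18 ± 0.10 (interval -0.40 to 0.04). The highest Ncam1 level belonged to EV replicate 5, at 18.7 CPM, and the next was Hand2 replicate 5 at 14.3 CPM. Without EV replicate 5 the Ncam1 effect was -0.10, and -0.04 in females in place of -0.19.

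The 4 myelin genes had fitted vector effects close to 0, and none passed. Mbp stood at 50.9, 38.6, 69.6, 69.7 and 57.4 CPM in EV females and at 44.5, 44.2, 53.0, 40.8 and 38.1 CPM in EV males. With the Hand2 vector it stood at 50.0, 38.4, 46.5 and 59.5 CPM in females and at 54.7, 46.8 and 48.5 CPM in males. Every group overlapped the others, with EV replicates 3 and 4 highest and EV replicate 10 lowest. The Mbp effect was -0.04 ± 0.12 (interval -0.31 to 0.22). Pmp22, with 46.8 to 82.8 CPM in EV and 57.9 to 74.2 CPM in Hand2 animals, gave 0.05 ± 0.10 (interval -0.16 to 0.26). Prx, with 22.0 to 35.7 CPM in EV and 23.9 to 31.8 CPM in Hand2 animals, gave 0.02 ± 0.09 (interval -0.18 to 0.22). Mag is scarcer, with 29.9 to 106 estimated counts a library, and its effect of -0.04 ± 0.17 had a wider interval of -0.41 to 0.32.

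Split by sex, the myelin genes had effects of opposite sign that did not pass. Mbp was at -0.24 ± 0.16 in females and 0.18 ± 0.17 in males, and the difference between these effects was 0.42 ± 0.23 (interval -0.07 to 0.91, edgeR adjusted p = 0.9997). Pmp22 was at -0.08 ± 0.13 and 0.20 ± 0.14, and Prx at -0.10 ± 0.13 and 0.15 ± 0.14. All 7 genes of the compact myelin list were negative in females (median -0.22) and positive in males (median 0.20), against medians of -0.004 over all genes in both, and 0 of 7 passed in either sex. Besides Mbp and Pmp22 that list includes Pmp2, Mal and Cnp. Without EV replicates 3 and 4 the difference between the sexes was 0.19 for Mbp, 0.11 for Pmp22 and 0.08 for Prx, and the female effects of Pmp22 and Prx were 0.09 and 0.07.

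Females and males were compared next, with the vector as a covariate. Of the 8 genes 0 passed, against 5.63% of all genes tested in edgeR (786 of 13965), and 2 of 8 had an unadjusted p under 0.05, as had 3017 of all genes. DESeq2 called 1271 genes of the table and limma-voom 1011, and neither called any of the 8. S100b stood at 4.92 ± 1.11 CPM in the 9 females, mean and SD, and at 4.08 ± 0.777 CPM in the 8 males, a male effect of -0.29 ± 0.14 (edgeR adjusted p = 0.227). For Pmp22 the means were 68.0 ± 10.5 and 58.9 ± 7.72 CPM, an effect of -0.21 ± 0.10 (edgeR adjusted p = 0.229). Mbp was at -0.21 ± 0.12, Ncam1 at -0.20 ± 0.10, Mag at -0.16 ± 0.17 and Prx at -0.11 ± 0.09. Sox10 lay at 0.15 ± 0.16. Ngfr was at 0.09 ± 0.51 with Hand2 replicate 7 and at -0.75 without it, when males held 0.773 to 2.05 CPM and females 1.43 to 4.96 CPM.

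Other myelin genes did pass between the sexes. Of 11 measured genes of non-compact myelin and Schwann cell adhesion, 2 were lower in males and 0 higher, with a list median of -0.11 against 0.00 over all genes. Ncmap, a membrane protein of non-compact myelin, was lower in males, at 2.49 to 3.93 CPM against 3.77 to 6.004 CPM in females (log2 fold change -0.58 ± 0.12, edgeR adjusted p = 0.00914). Drp2, a partner of periaxin at the outer Schwann cell membrane, was at -0.33 ± 0.09 (edgeR adjusted p = 0.0446), a call lost in 15 of the 17 fits that each left out 1 animal. Bace1, the protease that cleaves neuregulin and is also made in muscle, rose in males by 0.75 ± 0.14 (edgeR adjusted p = 0.00493). Of the 7 compact myelin genes 0 passed, with 6 negative and a median of -0.21. Fat-cell genes moved with sex as well, 5 of 7 being lower in males, against 380 of all 13965 genes. Their summed level was 177 to 330 CPM in females and 182 to 324 CPM in males. Fabp4, with a mean of 198 CPM, made up most of that sum, while Adipoq, lower in males, averaged 3.61 CPM. Adipoq and Plin1, which define fat cells, were present in every library, and the part of fat cells in these sex differences was not tested. All 8 immediate-early genes had a negative male effect (median -1.10) and 0 passed; EV replicates 3 and 4, whose levels of these genes were highest, are both females. Without EV replicates 3 and 4, 398 genes passed between the sexes and Mbp lay at -0.06.

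Although the vector left the genes without a called change, the levels of the myelin genes varied together from animal to animal. Across the 17 animals, 7 of 28 pairs of the 8 genes correlated at an adjusted permutation p under 0.05, on log2 CPM with a prior count of 2 and 100000 resamples, two-sided. Mbp and Pmp22 gave Pearson's r = 0.90 (permutation p = 1e-05, the smallest the resamples can give, adjusted p = 0.00014) and Spearman's rho = 0.91 (permutation p = 1e-05, adjusted p = 0.00028). Mbp and Prx gave r = 0.90 (permutation p = 3e-05, adjusted p = 0.00028) and rho = 0.87 (permutation p = 4e-05, adjusted p = 0.000373). Pmp22 and Prx gave r = 0.89 (permutation p = 1e-05, adjusted p = 0.00014) and rho = 0.88 (permutation p = 2e-05, adjusted p = 0.00028). These 3 genes thus rose and fell as a set. In females their r was 0.92, 0.90 and 0.96 in the same order, and in males 0.87, 0.90 and 0.80. It was 0.85, 0.84 and 0.87 without the 2 animals farthest from the median of the first gene. All 3 pairs still passed when each of the 17 animals was left out in turn.

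Mag, whose counts are few, followed that set more loosely. Its r was 0.60 with Pmp22 (permutation p = 0.0121, adjusted p = 0.0485, rho = 0.60 with permutation p = 0.0116), 0.55 with Prx (permutation p = 0.0213, adjusted p = 0.0747, rho = 0.60 with permutation p = 0.0131) and 0.495 with Mbp (permutation p = 0.0436, adjusted p = 0.122, rho = 0.52 with permutation p = 0.0352). Without the 2 farthest animals these were 0.53, 0.72 and 0.66, and the call for Pmp22 was lost on leaving out each of 15 animals in turn. Within females r was 0.58 with Pmp22, 0.44 with Prx and 0.37 with Mbp. Within males it was 0.56, 0.70 and 0.69.

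**Figure D3:**
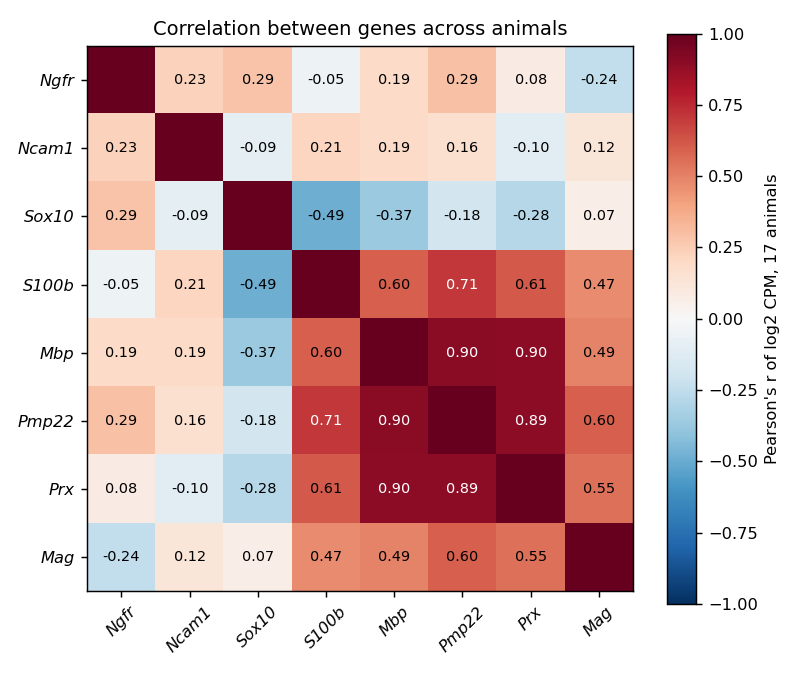
Pearson's r of log2 CPM between each pair of the 8 genes over 17 animals, on a colour scale from -1 to 1. Mbp, Pmp22 and Prx form a set at 0.89 to 0.90, and Ngfr, Ncam1 and Sox10 stand outside it at 0.29 or less.

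S100b varied with the myelin set as well, most closely in females. Over all animals its r was 0.71 with Pmp22 (permutation p = 0.00161, adjusted p = 0.0113, rho = 0.73 with permutation p = 0.00131), 0.61 with Prx (permutation p = 0.00881, adjusted p = 0.0485, rho = 0.63 with permutation p = 0.00763) and 0.60 with Mbp (permutation p = 0.0106, adjusted p = 0.0485, rho = 0.53 with permutation p = 0.0307). In the 9 females these were 0.87, 0.85 and 0.78, and in the 8 males 0.29, 0.10 and -0.001, a difference that was not tested. Leaving out the 2 farthest animals, EV replicates 3 and 9, gave 0.51, 0.44 and 0.41. The call for Pmp22 was lost without EV replicate 3 or EV replicate 9, and those for Prx and Mbp on leaving out each of 11 and each of 14 animals in turn.

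Sox10, which is known to switch on the myelin genes, had a relation with them that turned on 2 animals. Its r with Mbp was -0.37 over all animals (permutation p = 0.137, adjusted p = 0.32, rho = 0.00 with permutation p = 1), -0.72 in females and 0.81 in males. Without EV replicates 3 and 4 it was 0.42, so its sign rests on those animals. Per 100 CPM of Mbp, Sox10 stood at 4.17 CPM in EV replicate 3 and 3.28 CPM in EV replicate 4, against 8.23 to 15.7 CPM in the other 15 animals. With S100b, Sox10 gave r = -0.49 (permutation p = 0.0433, adjusted p = 0.122, rho = -0.27 with permutation p = 0.294) and -0.04 without the same animals.

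**Figure D4:**
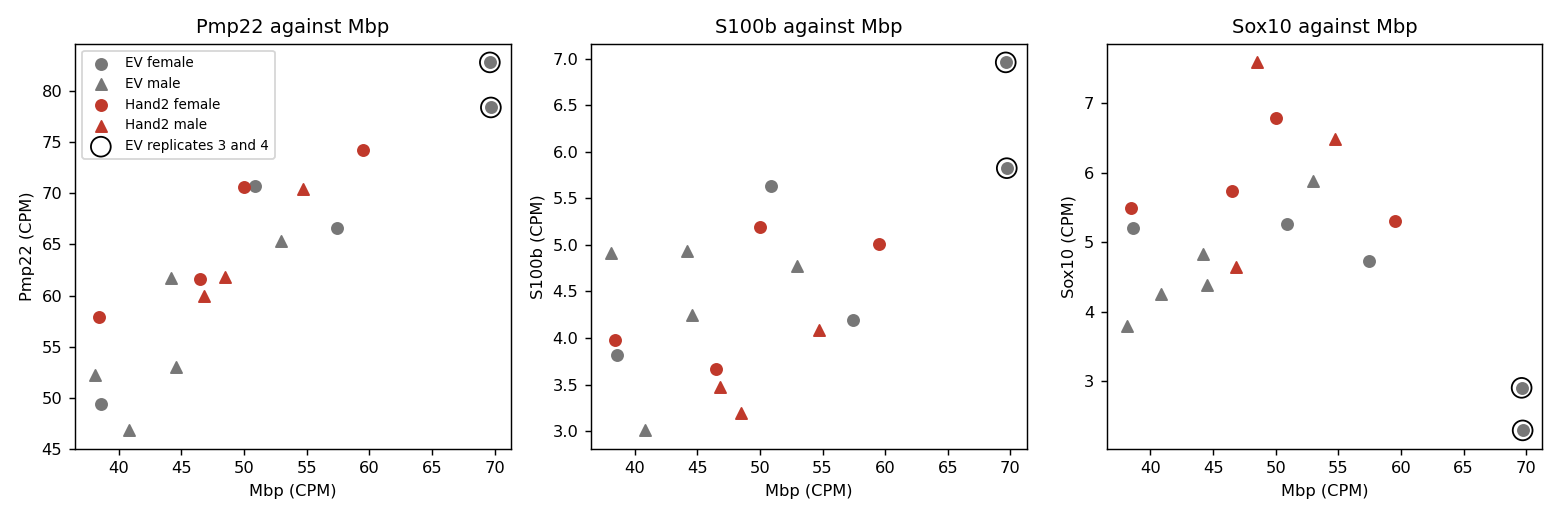
Levels of Pmp22, S100b and Sox10 against Mbp in CPM (linear axes that do not start at 0), 1 point per animal by vector and sex, with EV replicates 3 and 4 circled. Pmp22 climbs with Mbp, and the circled animals hold the most Mbp, near 70 CPM, and the least Sox10, below 3 CPM.

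Ngfr and Ncam1, both tied to the immature or non-myelinating state, stood apart from the set and from each other by Pearson's r. No pair of either gene with Mbp, Pmp22, Prx or Mag had an r above 0.29, over 8 pairs. Between Ngfr and Ncam1, r was 0.23 (permutation p = 0.323, adjusted p = 0.565) and rho 0.60 (permutation p = 0.0124, adjusted p = 0.0457). Without Hand2 replicate 7 and EV replicate 9, r was 0.48. It was 0.49 in females and 0.03 in males.

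Among all genes tested, those most like the myelin set were sought by Pearson's r with the mean of the centred log2 CPM of Mbp, Pmp22, Prx and Mag over the 17 animals. Among the closest were Gatm, an enzyme of creatine synthesis (r = 0.87), Ebf2, a transcription factor (0.84), Sept3, a septin (0.81), and Gstm1, a glutathione transferase (0.80). Pi15, Otop1, Sepp1, Mal, Gabra3, Scaf8 and Nfkbiz lay at 0.77 to 0.79. Over all 13957 other genes the median r was 0.01 and the 99th percentile 0.65. Mal is a myelin gene itself. The 5 compact myelin genes outside the 8 had a median r of 0.56 (0.23 to 0.87) and the 9 non-compact ones 0.58 (-0.40 to 0.74). The summed level of the 8 immediate-early genes was highest in EV replicates 3 and 4, both females. What these animals add to the likeness was not tested. Within males r was 0.70 for Fos, 0.55 for Jun, 0.55 for Fosb and 0.46 for Egr1. It was lower for Atf3 (0.15), Ier2 (0.12), Nr4a1 (0.06) and Junb (-0.07). Over the 17 animals the 8 immediate-early genes reached a median of 0.55. Lists of other kinds lay nearly as high, with 0.50 for 7 NCAM partners and 0.49 for 8 non-myelinating and repair genes. The 6 fibroblast genes had 0.46, the 6 macrophage genes 0.42 and the 10 genes of the muscle response to nerve loss 0.42. Lower medians were -0.02 for 7 fat-cell genes, -0.19 for 4 axon and neuron genes and -0.49 for the 6 endothelial genes. All these values share 17 libraries and are descriptions.

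Ncam1 had other company. Closest to it were Cd47 (r = 0.86), Ces2c (0.83), Aif1l (0.83), Tubb6 (0.82), Chrna1, the alpha subunit of the muscle acetylcholine receptor (0.80), and G530011O06Rik (0.80). The 10 genes listed for the response of muscle to loss of its nerve had a median r of 0.59 with Ncam1, between -0.08 and 0.80, against -0.01 over all genes. EV replicate 5 held both the most Ncam1 and the highest summed level of those 10 genes, 700 CPM against 181 to 499 CPM in the other 16 animals. Chrna1 was also highest there, at 63.7 CPM. The myelin and non-myelinating Schwann cell lists had medians of -0.01 to 0.26 with Ncam1. All 10 denervation genes had a negative vector effect over both sexes (median -0.50, 0 passed). In females 10 of 10 were negative (median -0.82) and in males 7 of 10 (median -0.04), with 0 passing in either.

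S100b was closest to l7Rn6 (r = 0.82), Krt10 (0.80), Foxp1 (0.80), Sept3 (0.77), Gatm (0.76) and Fem1b (0.75), so Sept3 and Gatm stood near both S100b and the myelin set. Ngfr was closest to Thnsl1 (0.80), Col18a1 (0.78), Fat1 (0.78), Ptn (0.78), Bgn (0.77) and Prc1 (0.77), which include genes of matrix and secreted factors. The Ngfr values are weighted by Hand2 replicate 7.

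Hand2 replicate 7 was then described across the 46 genes of the Schwann cell lists, after its Ngfr level had been seen and with no test. Its Ngfr was 8.21 times the median of the other 16 animals, which ranked 2 among 12056 genes with a median of at least 1 CPM. Sox2, a factor of immature Schwann cells, stood at 1.15 CPM (22 estimated counts) against 0.0430 to 0.373 CPM elsewhere. Olig1, a factor seen in injured nerve, stood at 0.942 CPM (18 estimated counts) against 0 to 0.149 CPM. Gap43, a growth-associated protein, was highest too, at 0.576 CPM, though close to Hand2 replicate 5 at 0.486 CPM. With Ngfr, the gene by which the animal was picked, these were the 4 of 16 listed non-myelinating and repair genes that were highest here of 17 animals. Sox2, Olig1 and Gap43 did not pass the filter on low counts; of the 11 listed genes that did, 1, Ngfr, was highest, and 9.34% of all genes tested were. Gfap, Cdh2, Jun, Shh, Artn and Gdnf of the same list were not highest, and Gfap stood at 0.0524 CPM, about 1 count.

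The same animal had the highest Sox10, Nab1 and Nab2 among 7 tested Schwann cell transcription factors. Nab2, a corepressor of Egr proteins, stood at 13.9 CPM against 3.28 to 9.60 CPM elsewhere. Of the 11 tested genes of non-compact myelin and adhesion, Cadm4 (10.3 CPM against at most 7.47), Gldn and Cntnap1 were highest. Gjb1, the gap junction protein connexin 32, and Cldn19, a tight junction protein of myelin, were lowest. Gjb1 stood at 0.314 CPM (6 estimated counts) against 0.391 to 1.298 and Cldn19 at 3.51 CPM (67 estimated counts) against 3.86 to 8.38. This library was the smallest of the 17, at 19181208 estimated counts. Of all genes tested 10.6% were lowest in this animal. Mag at 1.57 CPM and S100b at 3.19 CPM were next to lowest, while none of 7 compact myelin genes was highest or lowest and Mbp stood at the median. Hand2 replicate 7 also held the most Hand2 transcript, 26.3 CPM against 10.2 CPM in the next animal, Hand2 replicate 4, whose Ngfr was 2.05 CPM. The other Hand2 animals held less Hand2 transcript, from 1.02 CPM in replicate 5 (21 estimated counts) to 3.22 CPM in replicate 1. EV animals held 0.0711 to 0.940 CPM of it, so the lowest Hand2 animals lay close to the highest EV animal. Transcripts from the vector and from the animal's own Hand2 gene were not separated.

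**Figure D5:**
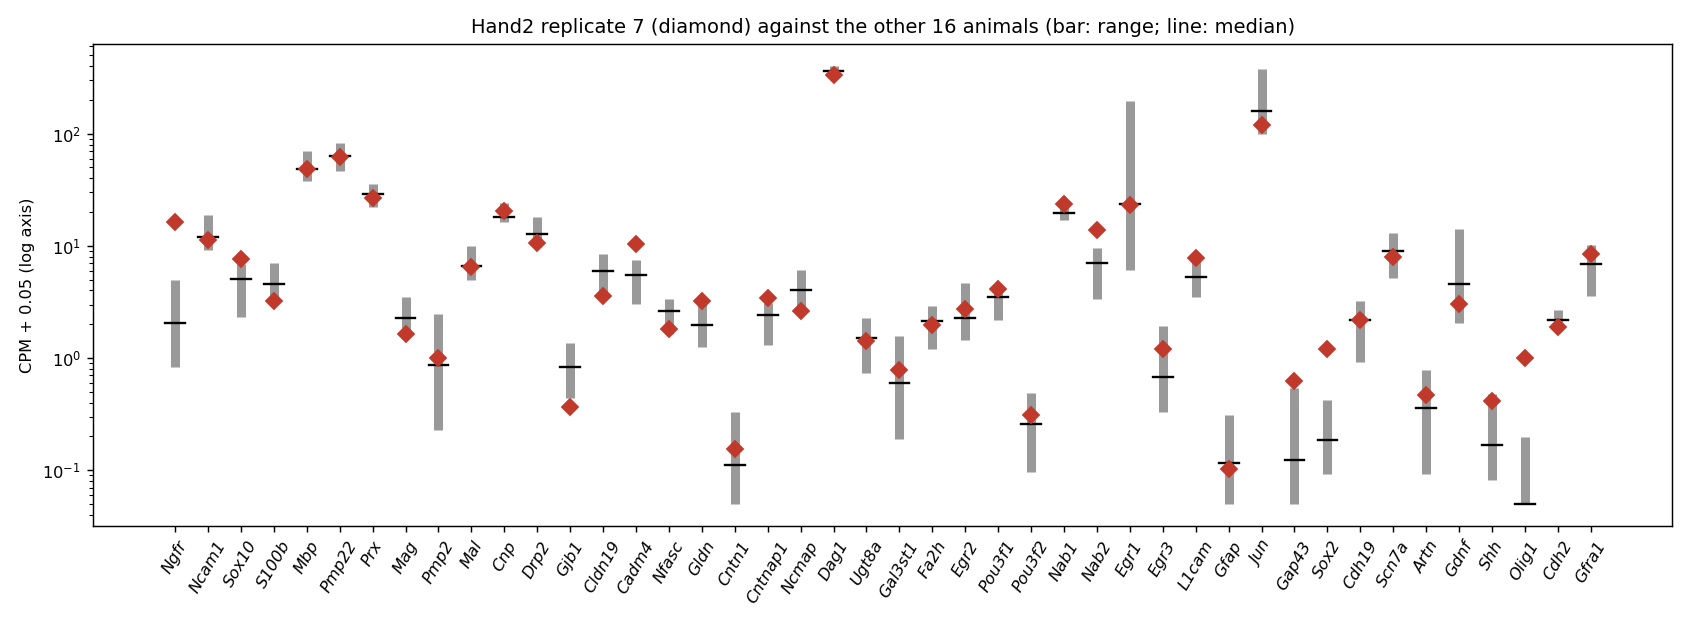
Level of 44 Schwann cell and myelin genes in Hand2 replicate 7 (diamonds) and the range (bars) and median (lines) of the other 16 animals, in CPM with 0.05 added, on a log axis. Ngfr, Sox2 and Olig1 lie well above the bars, Gjb1 and Cldn19 below them, and Mbp and Pmp22 inside.

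The signals that act on these genes showed no called change with the vector. Of 15 neurotrophin and receptor genes 13 were measured, 0 passed, and the median effect was 0.03. Bdnf, a ligand of Ngfr, lay at 1.42 to 8.60 CPM and had an effect of -0.48 ± 0.36. Of the Trk receptors that work with Ngfr, Ntrk2 lay at 4.28 to 10.7 CPM with an effect of 0.03 ± 0.17, and Ntrk3 at 0.67 to 1.95 CPM with -0.08 ± 0.21. Sort1, the sortilin that joins Ngfr in binding proneurotrophins, lay at 87.5 to 155 CPM. Lingo1, another partner, had the smallest p of the list, at -0.91 ± 0.35 (edgeR adjusted p = 0.921).

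Of 5 neuregulin pathway genes 4 were measured and 0 passed. Erbb3, the neuregulin receptor of Schwann cells, was at 0.14 ± 0.14 and its partner Erbb2 at 0.22 ± 0.13. Of 7 measured Schwann cell transcription factors 5 were positive, with a median of 0.26 against -0.004 over all genes, and 0 passed. Egr2, the master factor of myelination, was at -0.08 ± 0.20, Egr3 at 0.87 ± 0.27 and Nab2 at 0.42 ± 0.17, or 0.30 without Hand2 replicate 7. Egr3 is scarce, with a mean of 0.724 CPM, and its effect ran from 0.30 to 1.41 over the alternative settings. Among 8 measured NCAM partners 0 passed, and Gfra1, a coreceptor for GDNF that NCAM also binds, was at 0.42 ± 0.16 (edgeR adjusted p = 0.921). Of 11 measured genes of the non-myelinating and repair list 0 passed, with 6 positive and a median of 0.11.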

How the data were processed

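Libraries of EDL muscle RNA followed Illumina TruSeq v2, per the labels' protocols, and the genome build is mm10, per the submitters' processing notes. The sources used here give no aligner, counter or strand setting. The authors deposited estimated counts per gene and normalized log2 values. Estimated counts were rounded and tested with edgeR 4.0.16 (R 4.3.3): filterByExpr by vector and sex, TMM scaling, robust quasi-likelihood F tests and Benjamini-Hochberg adjustment over 13965 genes. The comparisons of vectors and of sexes came from 1 additive model, those within sex from 4 vector-by-sex groups. The SE is the log2 fold change divided by the square root of F. Alternatives were DESeq2 1.42.0, limma 3.58.1 (voom with quality weights, and on the deposited log2 values), other scalings and filters, age, and leaving out each animal. The procedures were tested on simulated data. P-values measure the spread between these animals.

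The 8 genes and the 18 gene lists were chosen with earlier results of these data known. Named are all 8 genes, listed genes past the threshold, a fixed panel, the 2 smallest p of each list and the genes most like the 8, of which the text gives part; some genes are not reported here. Replicate numbers only name the animals and pair none.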

Additional observations from a re-analysis of the deposited data

Results flagged for a closer look

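In 40 groups of 4 to 10 animals, 5 for each of the 8 genes, 4 highest values stood apart from the next animal by more than Dixon's limit, which chance passes in about 1 group in 20. Ngfr stood at 16.28 CPM in Hand2 replicate 7, with the next Hand2 animal at 4.96 CPM. Among EV females Ngfr stood at 3.36 CPM in EV replicate 1, with the next at 2.42 CPM. Ncam1 stood at 18.69 CPM in EV replicate 5, with the next at 12.95 CPM, both in the whole EV group and among EV females. No lowest value was set apart in this way.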

How the results depend on the processing

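Of the 8 genes none passed in any comparison of vectors or sexes under any alternative or without any single animal. Counts of genes of the whole table moved with DESeq2 to 1 over all animals, 7 in females, 1 in males and 1271 between sexes, and in this last comparison without EV replicates 3 and 4 to 398 and without 3, 4 and 5 to 291, both settings chosen after seeing the data. Leaving out 1 animal gave 0 to 1 genes over all animals and in females, 0 to 2 in males, 476 to 952 between sexes (lowest without EV replicate 7) and 3 to 8 of 28 correlated pairs (3 without EV replicate 3 or 9). The sex call of Ncmap was lost without EV replicates 3, 4 and 5.

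Some effects changed sign, and the cause was not tested. With limma-voom Prx was -0.007 over all animals and Ngfr -0.19 in females and -0.25 between sexes, and on the deposited log2 values Ngfr was -0.10 and -0.28. With age as a term Mbp was 0.049, Egr2 0.061 and Ngfr between sexes -0.13. In 22-month animals Ngfr was -0.35, Mbp 0.15, Mag 0.25 and Egr2 0.44, and in 23-month animals Prx was -0.012 and Erbb3 -0.10. Without EV replicates 3 and 4 Mbp was 0.088 and Egr2 0.19 over all animals, Ngfr -0.032, Pmp22 0.085 and Prx 0.071 in females, Sox10 -0.022 and Prx 0.0006 between sexes, and r of Sox10 and Mbp 0.42. Without replicates 3, 4 and 5 these were Mbp 0.15, Mag 0.033 and Egr2 0.21 over all animals, Ngfr -0.17, Mbp 0.11, Pmp22 0.13, Prx 0.080 and Mag 0.037 in females, and Sox10 -0.032, Mbp 0.0105 and Prx 0.0093 between sexes.

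Leaving out 1 animal, effects over all animals ran from -0.10 to 0.021 for Mbp, -0.026 to 0.065 for Prx, -0.14 to 0.039 for Mag and -0.18 to 0.022 for Egr2. In females they ran from -0.42 to 0.27 for Ngfr and -0.23 to 0.047 for Mag, in males from -0.21 to 0.21 for Mag, and between sexes from -0.75 to 0.24 for Ngfr. Mag stood at 29.9 to 106 estimated counts a library, and what depth adds to its interval was not tested.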
